A study of Mus musculus with 4 samples.

Results

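The retinal gliosis and injury cytokine genes are 10 genes taken by name from the deposited count table, of 56493 genes in all: the intermediate filament genes Gfap and Vim, the endothelin ligand and receptor genes Edn2 and Ednrb, the growth factor gene Fgf2, the cytokine signalling genes Il6st, Stat3 and Socs3, and the secreted protease inhibitor genes Serpina3n and Serpina3f. They were compared between 2 libraries labelled AAV2.CrAT.NCd8 and 2 labelled AAV2.MCS.NCd8. All 4 came from wild-type mice whose optic nerve was crushed a month after an adeno-associated virus, AAV2, had been injected into the vitreous, and from retinal cells sorted by flow cytometry and labelled as retinal ganglion cells. The CrAT vector was made for overexpression of carnitine acetyltransferase, and the labels spell out neither MCS nor NCd8, the ending that all 4 titles share, and no other label gives a time after the crush. The labels leave out the strain and age of the mice, how many went into a library, the promoter of the vector and the species of its insert. The p-values therefore measure the spread between these libraries, which may be technical.

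After injury of the optic nerve, Müller glia and astrocytes of the retina enter a reactive state called gliosis, of which more GFAP and vimentin filaments are the usual sign. In injured mouse retina, photoreceptors make endothelin 2, which acts on the receptor EDNRB of Müller cells, and FGF2 is a survival factor that reactive Müller cells and photoreceptors release. Cytokines such as LIF and CNTF bind receptors that share the subunit gp130, the product of Il6st. Gp130 activates the transcription factor STAT3, which induces its own feedback inhibitor SOCS3 and, in reactive astrocytes, Serpina3n.

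The libraries held 24494253 to 27097438 counts, and all 10 genes passed the filter on low counts. The levels given are CPM (read counts per library size, with TMM factors) unless named FPKM, the deposited level per kilobase of exon. The RNA of the sorted samples was not that of ganglion cells alone. Paired values are in the order of replicates 1 and 2 throughout. The 12 ganglion cell markers summed to 240.1 and 373.1 CPM with CrAT and 178.1 and 253.1 CPM with MCS, whereas 12 rod markers summed to 27161 to 50330 CPM over the 4 libraries. The ganglion cell factor gene Pou4f2 had no count in 3 of the 4 libraries, but other markers of this list were present. The largest, Isl1, was 127.1 and 79.0 CPM with CrAT and 89.8 and 53.9 CPM with MCS. Nefl was 34.0 and 71.8 CPM with CrAT and 21.4 and 48.3 CPM with MCS. Of the 11 ganglion cell markers tested 9 had a positive and 2 a negative log2 fold change, CrAT over MCS. The 20 Müller glia markers, none of them at 0, summed to 17831 and 15755 CPM with CrAT and 25347 and 23507 CPM with MCS. In 12 of the 20 the CrAT libraries were both below the MCS libraries, as they were in 16.6% of all genes tested. The 9 astrocyte markers summed to 2026 and 2167 CPM with CrAT and 2435 and 2336 CPM with MCS. Most of that sum was Aldoc, at 1429 and 1738 CPM with CrAT and 1688 and 1688 CPM with MCS, and most of the rest Agt and Slc1a2. Other astrocyte markers were low, with S100b at 1.40 to 4.13 CPM, Gja1 at 0.293 to 1.48 CPM and Pax2 at 0 or 1 count. The part of all these markers in the results below was not tested. In bulk RNA, fewer cells of a type and less RNA per cell cannot be told apart.

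None of the 10 genes differed between CrAT and MCS libraries at an adjusted p of 0.05 in edgeR's quasi-likelihood test, where 0 of all 19638 genes tested (0%) did. At an unadjusted p under 0.05 there were 2 of the 10, where 4.15% of all genes passed. Serpina3f was higher in CrAT, as were 1.28% of all genes at that p, and Gfap lower, as were 2.87%. Gfap passed narrowly, and its unadjusted p lay on both sides of 0.05 between settings. In edgeR it was 0.0523 with DESeq2's size factors and 0.0375 with library totals. With no filter on low counts it was 0.0455 and with the replicate block 0.0120, both in edgeR. The unadjusted p of Gfap in DESeq2 was 0.0413. DESeq2 called Serpina3f alone among the 10. It called 54 genes in all (0.275%), 33 of them higher in CrAT (0.168%). In 1 gene, Serpina3f, the CrAT libraries were both above the MCS libraries, which held for 15% of all genes. In 2, Gfap and Vim, they were both below, which held for 16.6%. These 3 of 10 genes without overlap stand beside 31.6% of all genes tested, a similar share. Of the 10 genes 6 had a negative log2 fold change, as did 49.4% of all genes. The median log2 fold change, CrAT over MCS, was -0.091 over the 10 genes and 0.0075 over all genes tested.

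**Figure D1:**
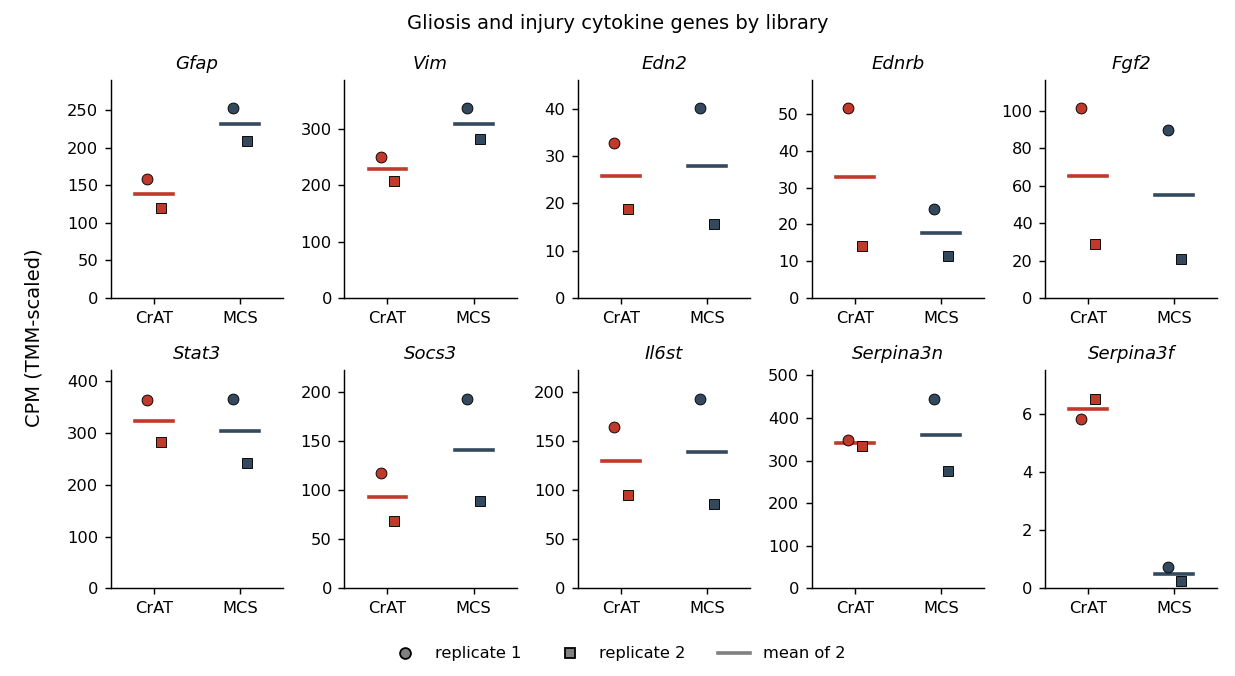
Level of each gene in each library (vertical axis, CPM with TMM scaling, from 0), for CrAT on the left and MCS on the right of each panel; circles are replicate 1, squares replicate 2 and bars the mean of 2. Gfap and Vim lie lower in both CrAT libraries, at 119.2 to 158.3 CPM for Gfap against 209.2 to 252.4 CPM with MCS, Serpina3f lies higher, and for the other 7 genes the groups overlap.

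The filament genes were lower in the CrAT libraries, by less than the test could separate from the spread between replicates. Gfap (ENSMUSG00000020932), the filament protein of reactive glia, was 158.3 and 119.2 CPM with CrAT and 252.4 and 209.2 CPM with MCS. The groups did not overlap, and the gap between them was 50.9 CPM. Its log2 fold change was -0.73 (SE 0.30; edgeR, unadjusted p = 0.04997, adjusted p = 1). Vim (ENSMUSG00000026728), which encodes vimentin, the filament protein of both resting and reactive Müller cells, was 249.2 and 208.1 CPM with CrAT and 336.5 and 281.9 CPM with MCS. These groups did not overlap either, and the log2 fold change was -0.44 (SE 0.29, adjusted p = 1). Neither gene changed direction when any library was left out, with log2 fold changes from -0.95 to -0.52 for Gfap and from -0.57 to -0.29 for Vim. Gfap and Vim moved with the Müller glia markers, which were lower in the same CrAT libraries. As a percent of the summed Müller glia markers, Gfap was 0.888% and 0.756% with CrAT and 0.996% and 0.890% with MCS, and Vim was 1.40% and 1.32% against 1.33% and 1.20%. On this scale the gap between the groups for Gfap was 0.002 percentage points, and the groups overlapped for Vim. Most of the Müller glia sum was Clu, Apoe, Dkk3 and Car2, so the scale mainly follows these genes. Of the 20 markers 18 had a negative log2 fold change and 2 a positive one, with -1.37 for Glul, -1.05 for Apoe, -0.47 for Clu and 0.40 for Car2. Another choice of markers could change the order of the groups.

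The start of Gfap is shown because its promoter window holds a match to the motif that STAT proteins bind, the gamma-activated site. The window is chr11:102897151-102897450 on the minus strand of GRCm38.p6, from RefSeq, and runs from 250 bases before the start of the gene to 50 after it. Capitals mark the motif, TTCNNNGAA, which reads the same on both strands.
Gfap: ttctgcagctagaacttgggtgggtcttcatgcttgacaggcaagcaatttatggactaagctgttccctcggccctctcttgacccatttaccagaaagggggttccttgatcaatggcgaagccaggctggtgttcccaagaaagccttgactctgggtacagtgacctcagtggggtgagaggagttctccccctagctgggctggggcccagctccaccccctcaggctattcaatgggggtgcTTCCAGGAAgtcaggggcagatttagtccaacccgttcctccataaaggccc
Matches to this motif were found in the windows of 3 of the 10 genes, Gfap, Socs3 and Serpina3f. The 10 genes have 11 windows, since Serpina3f has 2. Counted by window and not by gene, 8.3% of all 32851 windows of this length held a match. A match is a description of the letters and not of binding.

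The secreted factors and the endothelin receptor overlapped between the groups and differed widely between the replicates of each. Edn2 (ENSMUSG00000028635), the endothelin ligand, was 32.8 and 18.7 CPM with CrAT and 40.1 and 15.7 CPM with MCS, with a log2 fold change of -0.12 (SE 0.54). Fgf2 (ENSMUSG00000037225) was 101.5 and 28.6 CPM with CrAT and 89.8 and 20.6 CPM with MCS, with a log2 fold change of 0.24 (SE 0.81). Replicate 1 thus held 3.55 times the Fgf2 level of replicate 2 in CrAT and 4.35 times in MCS. Ednrb (ENSMUSG00000022122), the receptor for endothelins, was 51.7 and 14.2 CPM with CrAT and 24.3 and 11.4 CPM with MCS. Its highest level was in CrAT replicate 1, while CrAT replicate 2 lay between the MCS libraries, and its log2 fold change of 0.89 (SE 0.68, adjusted p = 1) became -0.33 without CrAT replicate 1. Edn2 turned to 0.72 without MCS replicate 1 and to 0.25 without CrAT replicate 2, and Fgf2 to -0.95 without CrAT replicate 1 and to -0.46 without MCS replicate 2. The Fgf2 value carries a further limit, since 640 of its 6782 exon bases are shared with Nudt6 on the other strand and 255 with the noncoding gene Gm43439, and the library kit does not mark strand. Nudt6 had 542 and 291 counts with CrAT and 374 and 266 with MCS, against 2423 and 758 counts of Fgf2 in CrAT and 2232 and 570 in MCS.

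Of the cytokine signalling genes, none separated the groups. Il6st (ENSMUSG00000021756), the shared receptor subunit gp130, was 164.4 and 95.7 CPM with CrAT and 193.6 and 85.7 CPM with MCS, so that both CrAT libraries lay between the MCS libraries. Its log2 fold change was -0.10 (SE 0.48), and 0.60 without MCS replicate 1. Stat3 (ENSMUSG00000004040), the transcription factor that gp130 activates, was 364 and 281.7 CPM with CrAT and 366 and 241.8 CPM with MCS, again with CrAT inside the range of MCS. The log2 fold change was 0.087 (SE 0.34), with -0.18 without MCS replicate 2. Of its 9527 exon bases 72 are shared with Stat5a on the other strand, which had 233 to 320 counts against 6677 to 9101 of Stat3. Socs3 (ENSMUSG00000053113), the feedback inhibitor of this pathway, was 117.5 and 69.0 CPM with CrAT and 193.2 and 89.2 CPM with MCS. MCS replicate 1 stood highest and the other 3 libraries lay between 69.0 and 117.5 CPM. The log2 fold change of -0.60 (SE 0.46, adjusted p = 1) rested on that library and was 0.067 without it.

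The Socs3 window is shown as that of the pathway's classic STAT3 target, at chr11:117969317-117969616 on the minus strand (GRCm38.p6, RefSeq). Its match to TTCNNNGAA, in capitals, begins at position -154 from the start, against position -2 in Gfap.
Socs3: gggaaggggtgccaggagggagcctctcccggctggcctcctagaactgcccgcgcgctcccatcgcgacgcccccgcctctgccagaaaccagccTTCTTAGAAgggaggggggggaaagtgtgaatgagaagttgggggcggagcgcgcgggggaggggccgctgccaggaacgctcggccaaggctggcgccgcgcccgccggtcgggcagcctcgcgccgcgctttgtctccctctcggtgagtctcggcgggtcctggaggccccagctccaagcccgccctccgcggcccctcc
The part of the motif in the values of either gene was not tested.

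By FPKM, Serpina3n was the most abundant of the 10 transcripts and Serpina3f the least, and of this pair only Serpina3f separated the groups. Serpina3n (ENSMUSG00000021091), an inhibitor that reactive astrocytes secrete, was 349.6 and 333.6 CPM with CrAT and 445.7 and 276.1 CPM with MCS. The CrAT libraries lay inside the range of the MCS libraries. The log2 fold change was -0.079 (SE 0.34). Serpina3f (ENSMUSG00000066363), a serine protease inhibitor of the same gene cluster, was 5.82 and 6.53 CPM with CrAT and 0.724 and 0.254 CPM with MCS. These levels stand on 139 and 173 counts in CrAT and 18 and 7 counts in MCS, and the gene passed the filter on low counts through the CrAT libraries. The log2 fold change was 3.66 (SE 0.66), or 12.6-fold, and stayed between 3.09 and 4.58 without each library in turn. In edgeR it had the 12th smallest p of 19638 genes, with an unadjusted p of 0.00124 and an adjusted p of 1. In DESeq2 the adjusted p was 0.00159. In the FPKM of the authors, which allows genes to be compared, Serpina3f was 2.47 and 2.82 with CrAT and 0.314 and 0.106 with MCS, against 136.3 to 219.2 for Serpina3n in the 4 libraries. The interferon response genes, a list chosen with earlier results of these data known, were higher in the same libraries. In 13 of 14 both CrAT libraries were above the MCS libraries, against 15% of all genes. The summed levels of these genes were 3106 and 3773 CPM with CrAT and 1784 and 1554 CPM with MCS. Their part in the Serpina3f value was not tested. The 15 microglia and macrophage markers summed to 35.9 to 42.9 CPM in all 4 libraries.

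Serpina3f, Serpina3n and the other Serpina3 genes are related genes of 1 cluster on chromosome 12. Reads shared between related genes could be divided among them, and the values behind the rounded counts were not whole, with 139.35 and 172.72 for Serpina3f in CrAT and 17.59 and 6.55 in MCS, so the share that came from related genes is uncertain. Of 10 table entries for 9 other Serpina3 genes 5 were tested, 3 with a positive and 2 with a negative log2 fold change. In 2 of the 5, Serpina3i and Serpina3c, both CrAT libraries were above the MCS libraries, against 15% of all genes tested. In 1, Serpina3m, both were below, against 16.6%. Serpina3i was 3.60 and 2.38 CPM with CrAT and 1.73 and 0.326 CPM with MCS, with a log2 fold change of 1.54 (SE 0.84). Serpina3c was 2.85 and 2.38 CPM with CrAT against 1.41 and 0 CPM with MCS, and the 0 allows up to 0.111 CPM by 3 counts, a floor that covers counting error only. Serpina3g was 0.377 and 0.528 CPM with CrAT and 0.442 and 1.30 CPM with MCS, and Serpina3m was 0.0838 and 0.377 CPM against 0.643 and 0.435 CPM. None of the 5 passed the test, and Serpina3a had no count in any library.

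The windows of Serpina3f and Serpina3n, related genes of the same cluster, are shown together. They are chr12:104214294-104214593 and chr12:104406458-104406757, both on the plus strand of GRCm38.p6 (RefSeq), and 207 of 278 aligned bases (74.5%) were identical. Capitals mark the match to TTCNNNGAA, which begins at position -121 from the start of Serpina3f, and the Serpina3n window has none. The part of this match in the values was not tested.
Serpina3f: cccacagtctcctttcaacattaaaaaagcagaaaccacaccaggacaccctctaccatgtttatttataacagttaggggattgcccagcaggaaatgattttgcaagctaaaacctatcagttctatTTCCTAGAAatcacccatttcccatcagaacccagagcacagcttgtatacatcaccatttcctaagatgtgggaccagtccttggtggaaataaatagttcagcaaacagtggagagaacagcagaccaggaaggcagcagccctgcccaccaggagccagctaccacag
Serpina3n: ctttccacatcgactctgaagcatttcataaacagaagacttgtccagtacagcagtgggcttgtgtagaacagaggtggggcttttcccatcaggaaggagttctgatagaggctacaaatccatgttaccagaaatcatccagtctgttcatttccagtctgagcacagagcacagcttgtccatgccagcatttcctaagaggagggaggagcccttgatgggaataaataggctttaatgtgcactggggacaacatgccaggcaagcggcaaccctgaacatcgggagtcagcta
A second RefSeq start of Serpina3f lies 89 bases downstream, and its window holds the same match.

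Compared per length, the 10 genes spanned a wide range. By mean FPKM over the 4 libraries the order was Serpina3n at 170.1, Vim at 56.8, Gfap at 43.9, Socs3 at 40.6, Stat3 at 32.8, Edn2 at 18.3, Il6st at 12.1, Fgf2 at 8.81, Ednrb at 5.88 and Serpina3f at 1.43. Serpina3n stood apart, since its lowest library, at 136.3 FPKM, was above the highest of Vim, at 72.0 FPKM. The ranges over the 4 libraries overlapped for each other neighbouring pair in this order down to Fgf2 and Ednrb. Within every library, however, Vim was above Gfap, Stat3 above Edn2, Edn2 above Il6st and Fgf2 above Ednrb. The other pairs in that stretch changed order between libraries. For Ednrb and Serpina3f the lowest Ednrb value, in MCS replicate 2, was 2.72 FPKM. The highest Serpina3f value, in CrAT replicate 2, was 2.82 FPKM. Those ranges overlapped narrowly, but Ednrb was above Serpina3f within every library.

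Most of the 10 genes were ordered by replicate number in the same way in both groups. In 9 of the 10 genes, all but Serpina3f, replicate 1 was higher than replicate 2 in both groups, which held for 32.7% of all genes tested. MCS replicate 1 was the highest of the 4 libraries in 7 genes (27.3% of all genes) and MCS replicate 2 the lowest in 7 (28.3% of all genes). Rod markers ran the same way, at 50330 and 27161 CPM with CrAT and 49146 and 29126 CPM with MCS, while amacrine cell markers ran the other way, at 815.8 and 2192 CPM with CrAT and 697.1 and 1336 CPM with MCS. Their part in the order of these genes was not tested. The median log2 fold change of the 10 genes moved with the library left out and was -0.56 without CrAT replicate 1, 0.25 without CrAT replicate 2, 0.51 without MCS replicate 1 and -0.51 without MCS replicate 2.

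**Figure D2:**
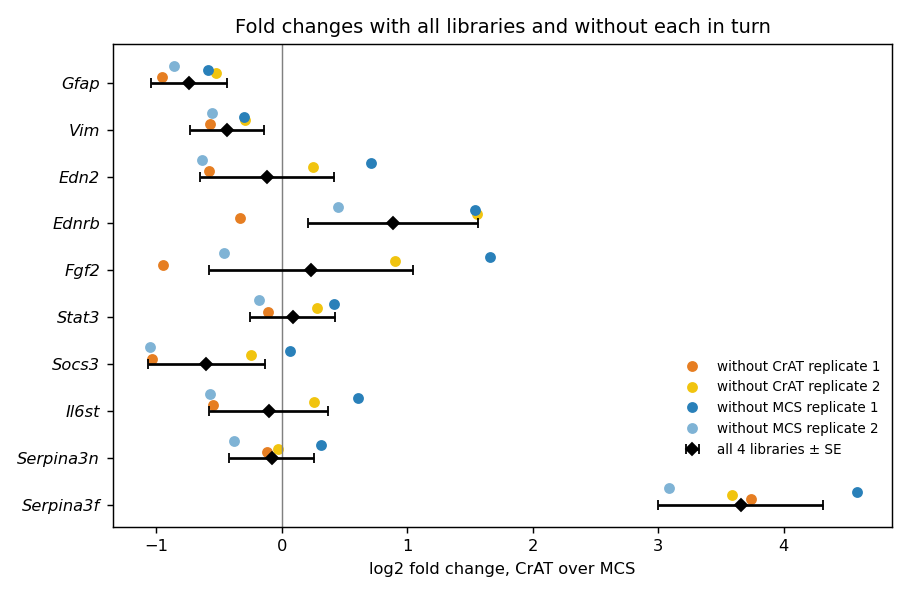
Log2 fold change, CrAT over MCS (horizontal axis), of each gene with all 4 libraries (black diamonds, bars are the SE) and without each library in turn (coloured circles). Gfap and Vim stay below 0 and Serpina3f stays above 3 in every case, while the other 7 genes change sign.

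Set against the summed Müller glia markers, 3 of the 10 genes were higher in both CrAT libraries and 1 was lower. On this scale 49.3% of all genes tested were higher in both CrAT libraries and 4.35% lower, so the 3 of 10 are no more than the background. Stat3 was 2.04% and 1.79% of that sum with CrAT and 1.44% and 1.03% with MCS. Serpina3n was 1.96% and 2.12% against 1.76% and 1.17%, and Serpina3f 0.0327% and 0.0414% against 0.00286% and 0.00108%. Gfap was the lower one, and the remaining 6 overlapped. This ratio has no test here, and it mainly follows Clu, Apoe, Dkk3 and Car2, which make up most of the sum. The sum of the 20 markers is itself lower in CrAT.

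**Figure D3:**
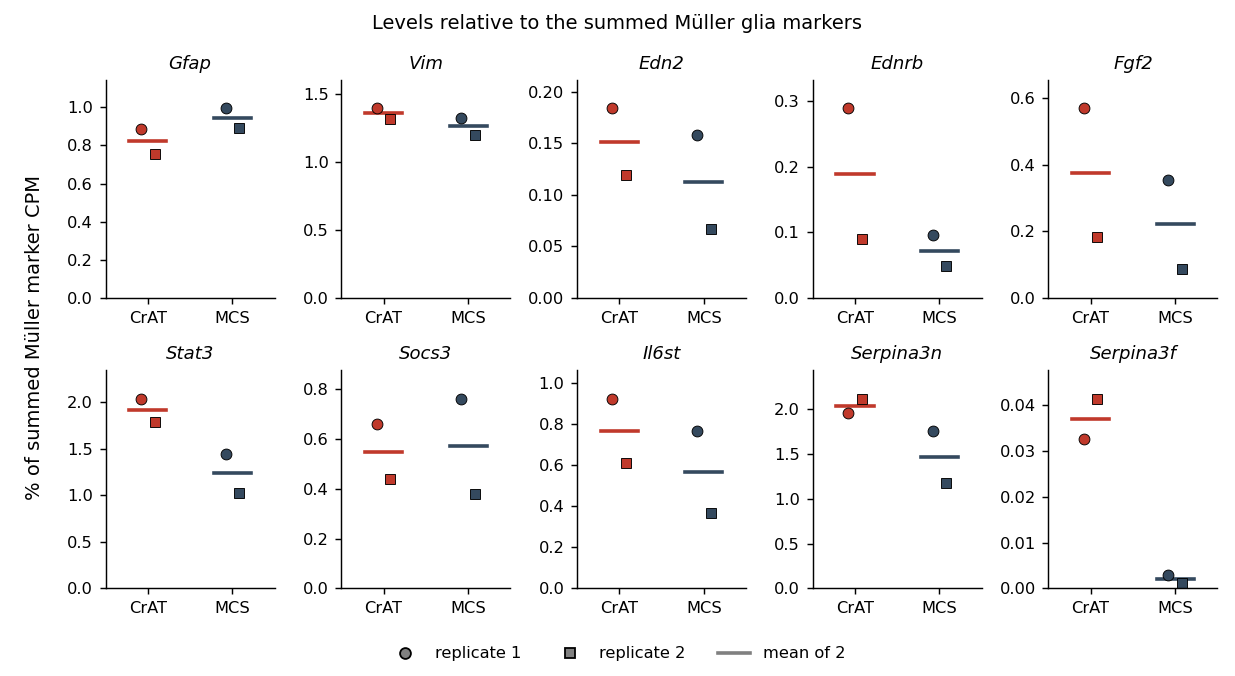
Level of each gene as a percent of the summed CPM of 20 Müller glia markers (vertical axis, from 0) in each library, CrAT left and MCS right; circles are replicate 1, squares replicate 2 and bars the mean of 2. Stat3, Serpina3n and Serpina3f lie higher in both CrAT libraries, as do 49.3% of all genes on this scale, and the groups for Gfap nearly touch, at 0.888% in CrAT replicate 1 and 0.890% in MCS replicate 2.

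Genes that act with these 10 were counted from lists. None of the 72 tested passed at an adjusted p of 0.05 in edgeR or DESeq2. At an unadjusted p under 0.05 in edgeR, 6 were lower in CrAT and 0 higher, against 2.87% and 1.28% of all genes. Of 8 gp130 cytokine genes 4 were tested, with 1 positive and 3 negative log2 fold changes and a median of -0.58, against 0.0075 over all genes. Clcf1, a ligand of the CNTF receptor, was 4.73 and 3.13 CPM with CrAT and 9.89 and 7.13 CPM with MCS (log2 fold change -1.11, SE 0.46). Cardiotrophin 1 (Ctf1) was 4.27 and 3.77 CPM against 7.28 and 7.68 CPM (-0.89, SE 0.41). For both of these genes the groups did not overlap. Cntf, a cytokine that protects injured photoreceptors and ganglion cells, had -0.27 (SE 0.37) with groups that overlapped. Lif, which in the mouse retina comes from Müller cells after photoreceptor damage, was 11.7 and 3.02 CPM against 4.67 and 2.79 CPM, with 1 high library in CrAT. Osm had no count in any library.

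Among the 5 tested of 6 partner receptor genes the median was 0.021, with 3 higher and 2 lower. This median was -0.65 without CrAT replicate 1, 0.50 without CrAT replicate 2, 0.88 without MCS replicate 1 and -0.38 without MCS replicate 2. Cntfr, the CNTF receptor subunit, was 23.96 and 22.6 CPM with CrAT and 30.4 and 118.2 CPM with MCS (log2 fold change -1.68, SE 0.62), so the size of the gap came from MCS replicate 2. Il6ra had 0.62 (SE 0.82), Il11ra1 -0.14 (SE 0.33) and Osmr, the oncostatin M receptor, 0.057 (SE 0.76). Of 8 tested JAK-STAT3 transducer and regulator genes 6 were higher and 2 lower, with a median of 0.098 that was 0.26 without MCS replicate 1. The kinase gene Jak1 was 269.9 and 238.1 CPM with CrAT and 204.5 and 175.2 CPM with MCS, without overlap (0.42, SE 0.28). The phosphatase gene Ptpn11 had -0.47 (SE 0.35), Cish, a SOCS family inhibitor, 0.44 (SE 0.40) and the kinase gene Tyk2 0.10 (SE 0.33).

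The 15 STAT3 target genes split into 7 higher and 8 lower, with a median of -0.046. Without single libraries that median changed sign, from -0.33 without MCS replicate 2 and -0.30 without CrAT replicate 1 to 0.012 without CrAT replicate 2 and 0.38 without MCS replicate 1. Junb, an AP-1 subunit, was 227.7 and 210.2 CPM with CrAT and 555.6 and 405.1 CPM with MCS (log2 fold change -1.13, SE 0.31). The transcription factor gene Cebpd was 215 and 163.7 CPM against 417.2 and 274.5 CPM (-0.87, SE 0.34). Cebpb had -1.21 (SE 0.85) at under 0.6 CPM in every library, and Bcl3 1.23 (SE 0.87) with groups that overlapped. The 20 reactive glia genes, of which Osmr, Lcn2, Timp1, Bcl3 and Cebpd are also on the target list, split into 9 higher and 11 lower with a median of -0.013. Here the median was -0.63 without CrAT replicate 1, 0.33 without CrAT replicate 2, 0.91 without MCS replicate 1 and -0.55 without MCS replicate 2. Lipocalin 2 (Lcn2), a secreted protein of reactive astrocytes that was picked after its values were seen, was 404.3 and 640 CPM with CrAT and 578.7 and 256.6 CPM with MCS, with overlap. Galectin 1 (Lgals1) was 13.2 and 14.4 CPM against 19.3 and 21.4 CPM (-0.56, SE 0.34). Transglutaminase 1 (Tgm1) was 15.3 and 1.24 CPM against 2.49 and 2.61 CPM, with 1 high library, and Aspg was 0.880 and 0 CPM against 2.61 and 1.23 CPM.

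In the FGF list 13 of 14 genes were tested, 4 higher and 9 lower, with a median of -0.20. That median was -0.11 without CrAT replicate 1, -0.043 without MCS replicate 1 and -0.55 without MCS replicate 2. The receptor gene Fgfr1 was 48.6 and 37.7 CPM with CrAT and 106 and 105.3 CPM with MCS. The groups lay far apart, and the log2 fold change of -1.29 (SE 0.29) had an unadjusted p of 0.00371 and an adjusted p of 1 in edgeR, and an adjusted p of 0.0816 in DESeq2. The feedback inhibitors of FGF signalling Spry4 and Spred1 had -0.46 (SE 0.44) and -0.32 (SE 0.38). Fgf1 was 38.5 and 155.9 CPM with CrAT and 4.22 and 103.3 CPM with MCS, higher in replicate 2 where Fgf2 was lower. Of 4 tested genes of the endothelin pathway 2 were higher and 2 lower. Edn1, an endothelin of blood vessels, was 0.586 and 0.868 CPM against 1.29 and 2.75 CPM (-1.47, SE 0.67), beside 10 endothelial and pericyte markers that summed to 466.4 and 366.7 CPM with CrAT and 904.9 and 451.4 CPM with MCS. Most of that sum was Kdr and Flt1, and of the 7 markers tested 3 had a positive and 4 a negative log2 fold change. Flt1 was 79.2 and 51.0 CPM with CrAT and 243.7 and 205.9 CPM with MCS (-1.79, SE 0.34, adjusted p = 0.00324 in DESeq2). Pecam1 was 1.55 and 0.943 CPM with CrAT and 0.402 and 0.543 CPM with MCS, and Cdh5 was at 0 in all 4 libraries. The part of these markers in the Edn1 value was not tested. The processing enzyme gene Ece2 had 0.66 (SE 0.56), Ednra 0.34 (SE 1.48) and Ece1 -0.055 (SE 0.31). All 4 tested genes of glial filaments and their partners were lower, with a median of -0.70, and in 3 of them both CrAT libraries were below the MCS libraries, against 16.6% of all genes. The median was -0.43 without CrAT replicate 2, -0.30 without MCS replicate 1 and -0.90 without MCS replicate 2. Plectin (Plec), which links intermediate filaments to other structures, was 25.4 and 31.2 CPM with CrAT and 51.7 and 59.8 CPM with MCS (-0.98, SE 0.30). Synemin (Synm) had -0.57 (SE 0.40), lamin A/C (Lmna) -0.39 (SE 0.28) and nestin (Nes) -0.83 (SE 0.90). The median of the 20 Müller glia markers was -0.50.

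**Figure D4:**
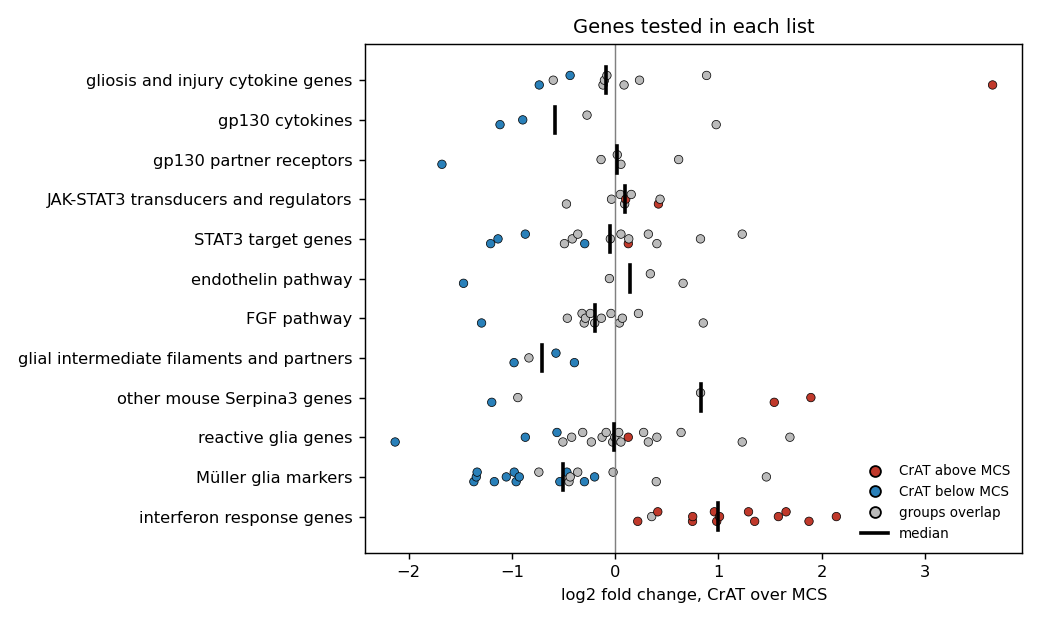
Log2 fold change, CrAT over MCS (horizontal axis), of the tested genes of each list; red points are genes with both CrAT libraries above both MCS libraries, blue points genes with both below, grey points genes that overlap, and black bars are medians. The tested genes of glial filaments and their partners lie below 0 with a median of -0.70, as do most Müller glia markers with -0.50. The reactive glia and STAT3 target genes spread to both sides of 0.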

How the data were processed

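RNA from 4 sorted retinal samples was grouped by the vector named in the sample titles. Per the labels' protocols, the cDNA came from a SMART-seq v4 kit for low input, which does not mark strand. The submitters' processing notes list STAR (2.7.2b) with GRCm38.p6 and mm10. No counter or annotation is named. The tables carry no build, and their coordinates of the 10 genes differ from those of RefSeq on GRCm38.p6. No coordinates from them are therefore printed. The authors deposited FPKM and estimated counts per gene. The counts are rounded: FPKM times exon length lay within 0.5 of them, and 43.6% to 44.9% of these products above 0 were not whole within 0.02. The design had assumed plain counts, and the same test applies. Of other samples each table held 2 columns (4 in all), not used here.

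Genes were kept by filterByExpr (19638), scaled by TMM and tested with edgeR 4.0.16 (quasi-likelihood F test, robust, 2 residual degrees of freedom, two-sided) in R 4.3.3, adjusted by Benjamini-Hochberg over them at 0.05, with DESeq2 1.42.0 as an alternative. The SE is the log2 fold change over the root of F. A permutation test of single genes was not run, as its smallest two-sided p is 0.333 here. Lists were described without a test, and up to 4 genes of each with the smallest p were named. One gene of the gp130 cytokine list is not reported here. Genes at 0, Lcn2 and the single genes of the marker lists were named after their values were seen. The 10 genes and the lists were chosen with earlier results of these data known. On counts simulated for 18965 genes of CrAT against MCS, edgeR recovered 4.08% of 2-fold, 60% of 4-fold and 94% of 16-fold changes. Each simulated gene had the spread typical of its level, and same-numbered libraries shared no pattern, so recovery in the real libraries may be lower. The replicates differed by more than sampling noise (chi-square per degree of freedom 84.4 for CrAT, 146 for MCS). Promoter windows of all 10 genes came from RefSeq, and those of the serpins were aligned globally with Biopython 1.88.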

Additional observations from a re-analysis of the deposited data

How the results depend on the processing

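The count of genes called by edgeR was 0 with TMM, with DESeq2's size factors, with library totals, with the replicate block and without each library in turn. It was 2 with no filter on low counts and 54 in DESeq2, which also called 1 of the 10 genes, Serpina3f. Genes at an unadjusted p under 0.05 numbered 815, and 1922 with the replicate block, 1410 with no filter and 597 to 1391 without single libraries. The adjusted p of Serpina3f ran from 0.00159 in DESeq2 and 0.0887 with no filter to 1. The replicate numbers stand for no shared animal or day in the labels. Same-numbered libraries deviated together from their group means with a correlation of 0.39 across genes, and the block, with which no gene passed, changed the direction of none of the 10 genes. Without 1 library the log2 fold change ran from -0.64 to 0.72 for Edn2, -0.33 to 1.56 for Ednrb, -0.95 to 1.66 for Fgf2, -0.18 to 0.42 for Stat3, -1.05 to 0.067 for Socs3, -0.57 to 0.60 for Il6st and -0.38 to 0.31 for Serpina3n, and the median of the 10 genes from -0.56 to 0.51. The cause was not tested. A library left out leaves its group with 1 sample, which is assumed to vary like the other group. With 2 libraries a group, a gene changed 2-fold would rarely be called.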
